A study of Mus musculus with 8 samples.

Results

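The proteasome genes described here were all rows of the deposited gene table whose symbol begins with Psma to Psmg followed by a digit. The rule took 49 of 17634 genes, and 47 of them had enough counts to be tested. They comprised 14 subunits of the constitutive core, 9 of the base and 8 of the lid of the regulatory particle, and 3 immunoproteasome subunits. The rest were 7 assembly factors, 5 genes of alternative activators, the inhibitor Psmf1, the thymus subunit Psmb11 and Psmc3ip, a meiotic recombination factor named for its partner Psmc3 that is not a proteasome subunit. The study compared small intestinal crypts of C57BL/6N mice that lack the miR-29ab1 locus (miR-29ab1-/-, here the knockout) with crypts of wild-type (WT) C57BL/6N mice. Every mouse was irradiated and its RNA taken 3 days later, and each genotype has 4 libraries with replicate numbers 1 to 4. The labels give neither the age of the mice nor the dose, and no unirradiated crypts enter the comparison. They do not say that the replicates were separate animals, so each p-value reflects only how far these 8 libraries scatter.

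The proteasome is the protease that degrades ubiquitin-tagged proteins. Its core particle is a barrel of alpha rings around beta rings, and 3 of the beta subunits (Psmb5, Psmb6 and Psmb7) carry the catalytic sites. The regulatory particle caps the core: the ATPases of its base unfold the substrate, and its lid removes ubiquitin. Under interferon, cells replace the catalytic subunits by Psmb8, Psmb9 and Psmb10, the immunoproteasome, which favours peptides for MHC class I. The activator PA28, made of Psme1 and Psme2, is induced along with them. In many cell types the transcription factor Nfe2l1 raises constitutive subunit genes together when proteasome activity falls short.

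Sequences are given for the deleted microRNAs and for the promoters of constitutive and inducible partners. The mature miR-29a and miR-29b come from RefSeq (GRCm38.p6, minus strand, chr6:31062673-31062694 and chr6:31063025-31063047), 5′ to 3′, with the shared seed (bases 2 to 8) in capitals.
mmu-miR-29a-3p: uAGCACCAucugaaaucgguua
mmu-miR-29b-3p: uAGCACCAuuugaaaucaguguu

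The seed pairs with TGGTGCT, which was found in the longest annotated 3′ UTR (GENCODE M21) of 4 of the 49 proteasome genes, or 8.16 percent, and of 16.8 percent of the 12649 tested genes with a 3′ UTR. These UTRs had a median of 379 bases in the proteasome genes and 1336 bases in the tested genes. The genes with a match were Psma3, Psmb7, Psme4 and Psmf1, and none of them was higher in the knockout (log2 fold changes of −0.66, −0.66, −0.33 and −0.11). The matches of Psmf1, whose 3′ UTR of 3014 bases is the longest of the 4, and of Psme4, with 702 bases, are shown in capitals.
Psmf1: aaaccggcttcctccTGGTGCTgtg
Psme4: acagactggagttttTGGTGCTgag

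The 120 bases before the start of transcription are shown for both members of 2 catalytic pairs and for Psma1 of the alpha ring, 5′ to 3′ (RefSeq, GRCm38.p6). The build behind the deposited table is not given in the sources used here, so these positions are those of the reference alone. Capitals mark the core of the antioxidant response element bound by Nfe2l1 and Nfe2l2 (TGACNNNGC) or a CCAAT box, on either strand.
Psmb5, chr14:54617996-54618115, minus strand: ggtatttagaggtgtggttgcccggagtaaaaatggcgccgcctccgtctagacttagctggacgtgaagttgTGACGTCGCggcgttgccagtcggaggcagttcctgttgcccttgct
Psmb8, chr17:34198075-34198194, plus strand: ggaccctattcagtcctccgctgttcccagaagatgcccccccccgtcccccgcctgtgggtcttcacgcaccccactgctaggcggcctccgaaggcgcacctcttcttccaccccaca
Psmb6, chr11:70525237-70525356, plus strand: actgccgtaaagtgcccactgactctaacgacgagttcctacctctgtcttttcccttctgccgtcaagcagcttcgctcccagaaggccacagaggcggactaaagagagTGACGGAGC
Psmb9, chr17:34187331-34187450, minus strand: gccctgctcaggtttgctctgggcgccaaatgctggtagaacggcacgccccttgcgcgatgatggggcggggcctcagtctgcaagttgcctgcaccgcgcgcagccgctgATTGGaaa
Psma1, chr7:114276117-114276236, minus strand: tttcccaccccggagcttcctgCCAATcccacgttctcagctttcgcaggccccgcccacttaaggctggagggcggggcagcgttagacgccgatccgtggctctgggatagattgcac

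Promoters of 42 of the 49 genes were in the RefSeq table, as windows of 250 bases before to 50 bases after the start. TGACNNNGC was in 6 of the 42 (14.3 percent), in 14 percent of all 27025 genes with a promoter and in 17.1 percent of the tested ones. Psmb5 and Psmb6 both held it, and the other 4 were Psmc6, Psmd9, Psmd12 and Psme4. Psmb7 had no promoter entry and was not searched. A CCAAT box was in 15 of the 42 (35.7 percent), against 41.1 percent of all genes, and 5 of the 7 alpha ring genes were among the 15. The core of the interferon-stimulated response element (GAAA, any 2 bases, GAAA) was in 5 of the 42 (11.9 percent), namely Psmb3, Psmd4, Psmd9, Psmg4 and Psme1, against 3.99 percent of all genes. None of the 3 immunoproteasome genes held these letters in this window. The searches covered both strands, and a match was counted only as letters, not as a bound site.

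Most proteasome transcripts were lower in knockout crypts. None of the 3 immunoproteasome subunits passed the test, at log2 fold changes of −0.52 to −0.11. Their ratios to the constitutive partners were not called different either (two-sided exact permutation test, adjusted p = 0.657 for each). In the knockout 32 of the 47 tested genes fell in edgeR's quasi-likelihood test at an adjusted p under 0.05 over all genes, and the same test called 23.1 percent of all 12908 tested genes lower. None rose, against 24.2 percent of all tested genes, and none had an unadjusted p under 0.05 as higher either. DESeq2 called 32 lower and 0 higher, against 24.1 and 26.3 percent of all tested genes. All 47 log2 fold changes were below 0, from −1.08 to −0.10. Their median was −0.49, against 0.03 for all tested genes, and their interquartile range was 0.34, against 1.06. In 26 genes the groups did not overlap, with every knockout library below every WT library, which held for 22.7 percent of all tested genes.

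**Figure D1:**
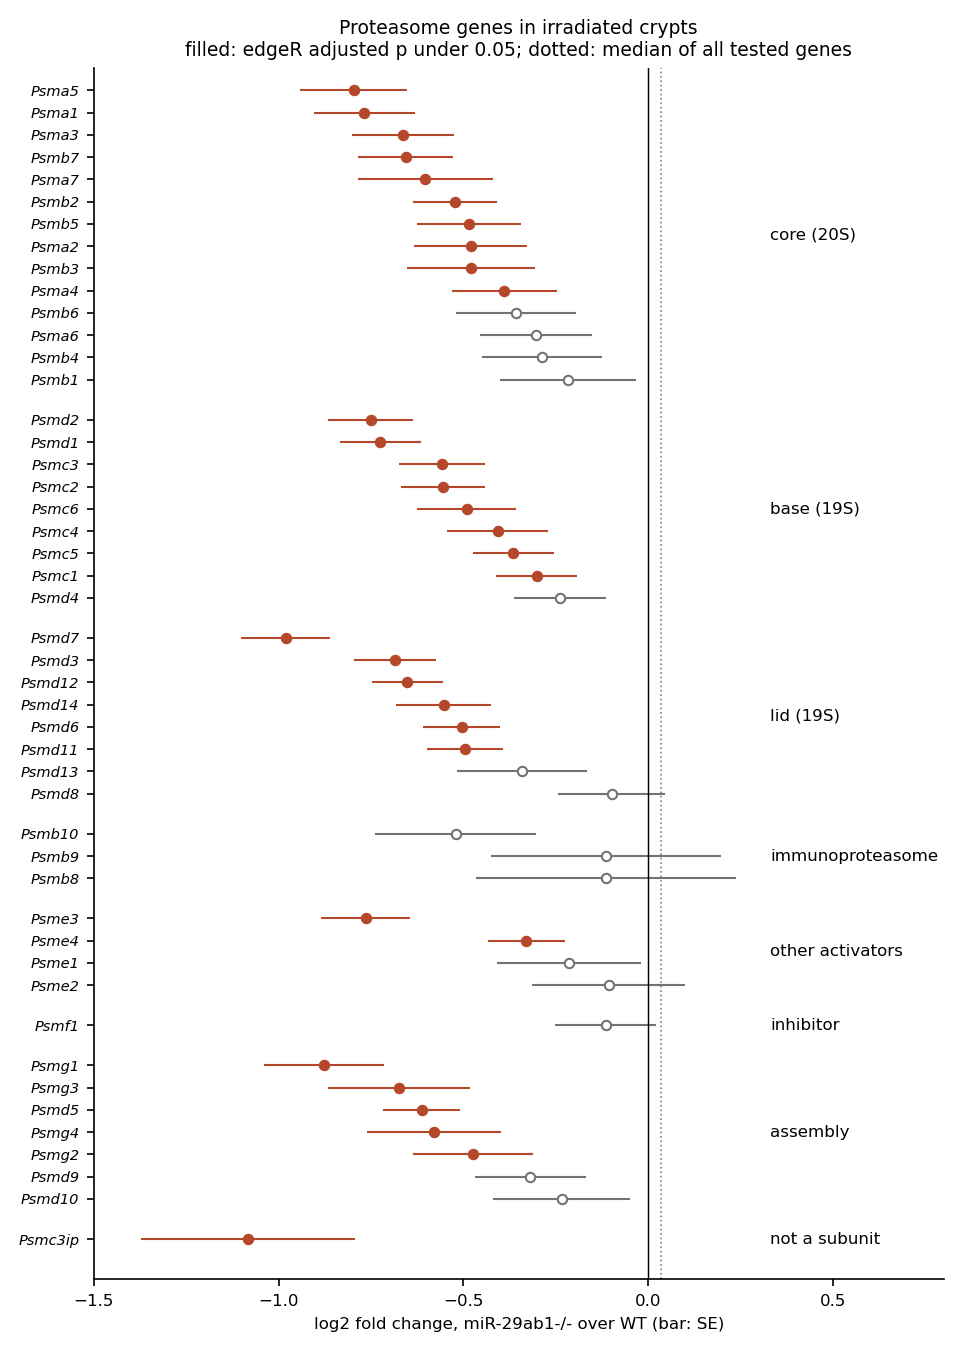
Log2 fold change of each tested proteasome gene, knockout over WT, with its SE, grouped by role; filled points had an edgeR adjusted p under 0.05, and the dotted line is the median of all tested genes, 0.03. Every point lies below 0, and all 3 immunoproteasome genes are open points.

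The 49 genes also held a smaller share of all counts, a measure that scales each library by its total. In knockout crypts it was 0.397, 0.451, 0.518 and 0.4499 percent, against 0.787, 0.827, 0.717 and 0.722 percent in WT crypts. The 2 groups were apart, with the highest knockout library below the lowest WT library. Scaled by total counts, 44 of the 47 genes were lower (31.1 percent of all tested genes), with a median log2 fold change of −0.76, where the median of all genes was −0.23. With the replicate number as a block the count was 39 (27.5 percent of all tested genes). Without WT replicate 1 it was 20 (18.7 percent), and with replicates 1 to 3 of both groups alone also 20 (18.5 percent). In each of the 16 alternatives run, 18 genes remained called: Psma1, Psma3, Psma5, Psmb2, Psmb7, Psmc2, Psmc3, Psmd1, Psmd2, Psmd3, Psmd5, Psmd6, Psmd7, Psmd11, Psmd12, Psmd14, Psme3 and Psmg1.

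Markers of dividing cells and of enterocytes also differed between genotypes, while none of 6 tested Paneth cell genes was called (median log2 fold change 0.50). Summed CPM of 11 genes of dividing cells was 773 to 1245 in knockout libraries and 2203 to 2707 in WT libraries, and all 11 fell. Summed CPM of 14 enterocyte genes was 30628 to 99965 in knockout libraries and 2726 to 12839 in WT libraries, and all 14 rose. Crypt epithelial genes (Epcam, Lgr5, Olfm4 and 7 others) were detected in every library and summed to 11258 to 17773 CPM in the knockout and 9782 to 12400 CPM in WT. Of these 10 genes 3 fell (Lgr5, Krt18 and Cdx1, at log2 −0.97, −0.64 and −0.44) and 2 rose (Krt20 and Epcam, at 2.45 and 0.74). These counts were near the background, as 23.1 percent of all tested genes were lower and 24.2 percent higher. The calls of Epcam, Cdx1 and Krt18 were lost in 9, 2 and 1 of the 16 alternatives. The stem cell marker Lgr5 was thus lower, while Olfm4 of the same list was not called (log2 0.47, edgeR adjusted p = 0.413). In bulk crypts, fewer cells of a type and less RNA per cell cannot be told apart, and the part of cell makeup in the proteasome result was not tested. Totals were 9481201 to 14612798 counts in knockout libraries and 10719668 to 16231099 in WT libraries. Replicate 4 of both genotypes had almost no Y-linked transcripts (1 and 3 counts, against 1285 to 2061 in the other 6 libraries). The deleted microRNAs have no row in the table and check no label.

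**Figure D2:**
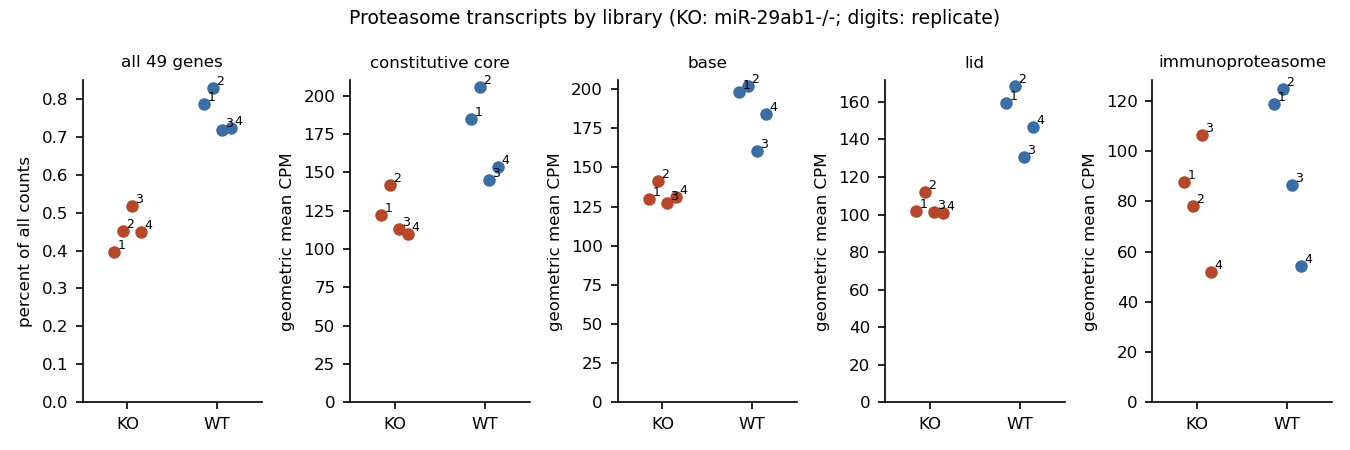
Percent of all counts in the 49 proteasome genes, and geometric mean CPM of 4 classes, with a point for each library and its replicate number (KO is miR-29ab1-/-). Knockout and WT libraries are apart for all genes, core, base and lid, and overlap for the immunoproteasome, where replicate 4 is lowest in both.

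The constitutive core fell in 10 of its 14 genes, against 23.1 percent of all tested genes, with a median log2 fold change of −0.48. In the alpha ring, which gates the entry to the barrel, 6 of 7 subunits fell. Psma1 (NCBI gene 26440) had 104, 115, 107 and 96.7 CPM in knockout crypts, against 187, 220, 156 and 158 CPM in WT crypts. No knockout library reached the lowest WT library, and the level was lower by 1.70-fold (log2 −0.77 ± 0.14 SE, edgeR adjusted p = 0.00229). Psma5 had 96.2, 115, 103 and 99.6 CPM in the knockout and 188, 222, 155 and 153 CPM in WT, again without overlap (log2 −0.80 ± 0.14, edgeR adjusted p = 0.00243). Psma3 had 118, 148, 128 and 122 CPM in the knockout and 206, 247, 177 and 187 CPM in WT (log2 −0.66 ± 0.14, edgeR adjusted p = 0.00426). In all 3 genes WT replicates 1 and 2 stood above WT replicates 3 and 4. Psma7, Psma2 and Psma4 fell by 0.60, 0.48 and 0.39 on the log2 scale. These 3 calls were lost in 5, 5 and 8 of the 16 alternatives, among them the fit without WT replicate 1 (edgeR adjusted p = 0.0640, 0.0712 and 0.125). Psma6, at −0.30, was not called (edgeR adjusted p = 0.128), while blocking on the replicate number gave 0.0243.

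Among the beta subunits without a catalytic site, 2 of 4 fell, where 23.1 percent of all tested genes were lower. Psmb2 had 106, 107, 104 and 103 CPM in the knockout and 156, 175, 130 and 142 CPM in WT (log2 −0.52 ± 0.11, edgeR adjusted p = 0.00538). Its knockout SD was 2.07 CPM, against 19.4 CPM in WT. Psmb3 had 129, 155, 118 and 112 CPM in the knockout and 202, 219, 142 and 154 CPM in WT (log2 −0.48 ± 0.17, edgeR adjusted p = 0.0452). Knockout replicate 2 reached into the WT range. The call was lost in 7 of the 16 alternatives, among them the fit without WT replicate 2 (edgeR adjusted p = 0.121). Psmb4 had 146, 172, 133 and 133 CPM in the knockout and 201, 215, 149 and 148 CPM in WT, which overlapped and was not called (edgeR adjusted p = 0.173), while blocking gave 0.0483. Psmb1 was not called either, at a log2 fold change of −0.22.

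Of the 3 constitutive catalytic subunits 2 fell, where 23.1 percent of all tested genes were lower. Psmb5, the chymotrypsin-like site, had 69.9, 91.5, 68.4 and 62.8 CPM in knockout crypts, against 114, 108, 88.5 and 99.7 CPM in WT crypts. It was lower by 1.40-fold (log2 −0.49 ± 0.14, edgeR adjusted p = 0.0190), with knockout replicate 2 above WT replicate 3. Its call was lost in 2 of the 16 alternatives, among them the fit without WT replicate 1 (edgeR adjusted p = 0.0572). Psmb7, the trypsin-like site, had 111, 122, 98.1 and 104 CPM in the knockout and 175, 201, 146 and 163 CPM in WT, with no overlap (log2 −0.66 ± 0.13, edgeR adjusted p = 0.00342). Psmb6, the caspase-like site, had 120, 136, 98.4 and 96.5 CPM in the knockout and 156, 172, 118 and 131 CPM in WT. Its groups overlapped and it was not called at a log2 fold change of −0.36 (edgeR adjusted p = 0.0973), while blocking gave 0.0117.

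In the base of the regulatory particle 8 of the 9 subunits under the symbol rule fell, against 23.1 percent of all tested genes. Among them were all 6 ATPases that unfold substrates and open the gate of the core. Psmc2 had 106, 113, 111 and 115 CPM in the knockout and 182, 174, 138 and 159 CPM in WT (log2 −0.56 ± 0.11, edgeR adjusted p = 0.00414). Psmc3 had 148, 168, 148 and 148 CPM in the knockout and 245, 237, 191 and 226 CPM in WT (log2 −0.56 ± 0.12, edgeR adjusted p = 0.00453). Both groups of values were apart, and 3 of the 4 knockout libraries were almost alike for Psmc3. Psmc6 had 89.6, 98.6, 75.2 and 86.4 CPM in the knockout and 124, 147, 104 and 118 CPM in WT (log2 −0.49 ± 0.13, edgeR adjusted p = 0.0149). Psmc4, Psmc5 and Psmc1 fell by 0.41, 0.36 and 0.30 on the log2 scale. These 3 calls were lost in 7, 4 and 9 of the 16 alternatives, among them the fit without WT replicate 2 (edgeR adjusted p = 0.0960, 0.0623 and 0.116).

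The large scaffold subunits of the base, Psmd1 and Psmd2, had log2 fold changes more negative than those of its ATPases, a difference that was not tested. Psmd2, a docking site for ubiquitin-like domains, had 168, 181, 207 and 192 CPM in knockout crypts, against 321, 332, 287 and 320 CPM in WT crypts. It was lower by 1.68-fold (log2 −0.75 ± 0.11, edgeR adjusted p = 0.00144). Psmd1 had 149, 160, 166 and 172 CPM in the knockout and 276, 279, 237 and 277 CPM in WT (log2 −0.73 ± 0.11, edgeR adjusted p = 0.00141). For both genes each knockout library lay well below each WT library. Psmd4, a ubiquitin receptor, had 133, 142, 112 and 117 CPM in the knockout and 159, 163, 129 and 145 CPM in WT. Knockout replicates 1 and 2 lay within the WT range, and Psmd4 was not called (log2 −0.24 ± 0.12, edgeR adjusted p = 0.140), while blocking gave 0.0488.

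In the lid 6 of the 8 subunits under the symbol rule fell, against 23.1 percent of all tested genes. Psmd7, the partner of the deubiquitinating subunit Psmd14, had the most negative log2 fold change of the 46 tested genes other than Psmc3ip. It had 86.9, 112, 99.4 and 100 CPM in knockout crypts, against 203, 216, 171 and 196 CPM in WT crypts, and was lower by 1.97-fold (log2 −0.98 ± 0.12, edgeR adjusted p = 0.00108). The highest knockout library was 112 CPM and the lowest WT library 171 CPM. Psmd12 had 81.0, 86.3, 90.6 and 85.8 CPM in the knockout and 140, 145, 124 and 131 CPM in WT (log2 −0.65 ± 0.10, edgeR adjusted p = 0.00131). Psmd3 had 157, 180, 171 and 178 CPM in the knockout and 299, 279, 245 and 281 CPM in WT (log2 −0.69 ± 0.11, edgeR adjusted p = 0.00174). These scaffold subunits also did not overlap between groups. Psmd14 itself, Psmd6 and Psmd11 fell by 0.55, 0.50 and 0.50 on the log2 scale. Psmd13 and Psmd8 were not called, at −0.34 and −0.10 (edgeR adjusted p = 0.139 and 0.597); blocking gave 0.0129 for Psmd13.

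Core, base and lid were also compared with one another within each library. The geometric mean of the core was 122 ± 14.5 CPM in knockout crypts and 172 ± 27.9 CPM in WT crypts (SD, n = 4 each). For the base it was 133 ± 6.21 CPM in the knockout and 186 ± 18.7 CPM in WT, and for the lid 104 ± 5.20 CPM in the knockout and 151 ± 16.3 CPM in WT. The knockout mean was thus 70.6 percent of the WT mean in the core, 71.2 percent in the base and 68.7 percent in the lid. The log2 difference between base and core within a library was 0.09, −0.00253, 0.17 and 0.26 in knockout replicates 1 to 4 and 0.10, −0.02, 0.14 and 0.26 in WT replicates 1 to 4. The ranges of the 2 genotypes overlapped almost entirely. No test was made of these class means.

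**Figure D3:**
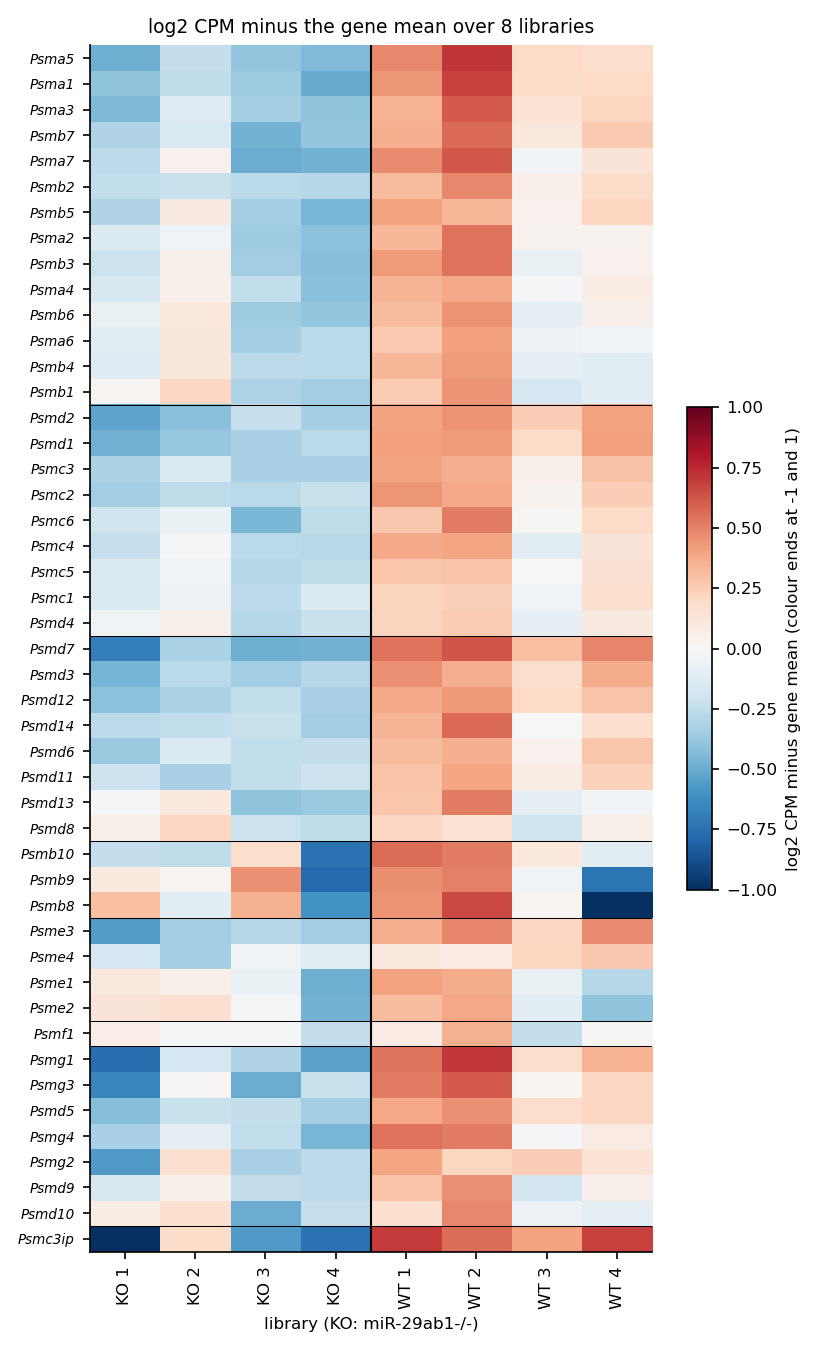
Log2 CPM of each tested proteasome gene in each library minus its mean over the 8 libraries, with knockout (KO) libraries on the left and genes grouped as in the plot of fold changes. Most rows are below their mean in all knockout libraries, and the immunoproteasome rows are lowest in replicate 4 of both genotypes.

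The 3 immunoproteasome subunits did not pass the test in either direction, and 1 of them had an unadjusted p under 0.05 (DESeq2 also called none of the 3). Psmb8 (NCBI gene 16913) had 109, 82.2, 113 and 58.0 CPM in knockout crypts, against 120, 140, 90.01 and 41.6 CPM in WT crypts. The ranges overlapped widely, and replicate 4 was the lowest in each genotype (log2 −0.11 ± 0.35, edgeR adjusted p = 0.810). Psmb9 had 49.3, 46.9, 63.3 and 26.9 CPM in the knockout and 63.7, 65.4, 45.1 and 27.8 CPM in WT, with the same low replicate 4 (log2 −0.11 ± 0.31, edgeR adjusted p = 0.785). The sign of both fold changes turned when single libraries were left out. Psmb10 had 126, 125, 168 and 89.1 CPM in the knockout and 219, 212, 160 and 137 CPM in WT. It was lower in 3 of 4 same-numbered pairs but not called at −0.52 ± 0.22 (edgeR adjusted p = 0.0766). It was called in 6 of the 16 alternatives. By edgeR adjusted p these were the replicate block (0.0268), upper-quartile factors (0.0410), total-count scaling (0.0248), replicates 1 to 3 alone (0.0448), the fit without WT replicate 4 (0.0475) and that without knockout replicate 3 (0.0240). The spread of this class within a genotype was wider than that of the core: the SD of its geometric mean was 28.0 percent of the mean in the knockout and 33.9 percent in WT, against 11.9 and 16.2 percent for the core.

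**Figure D4:**
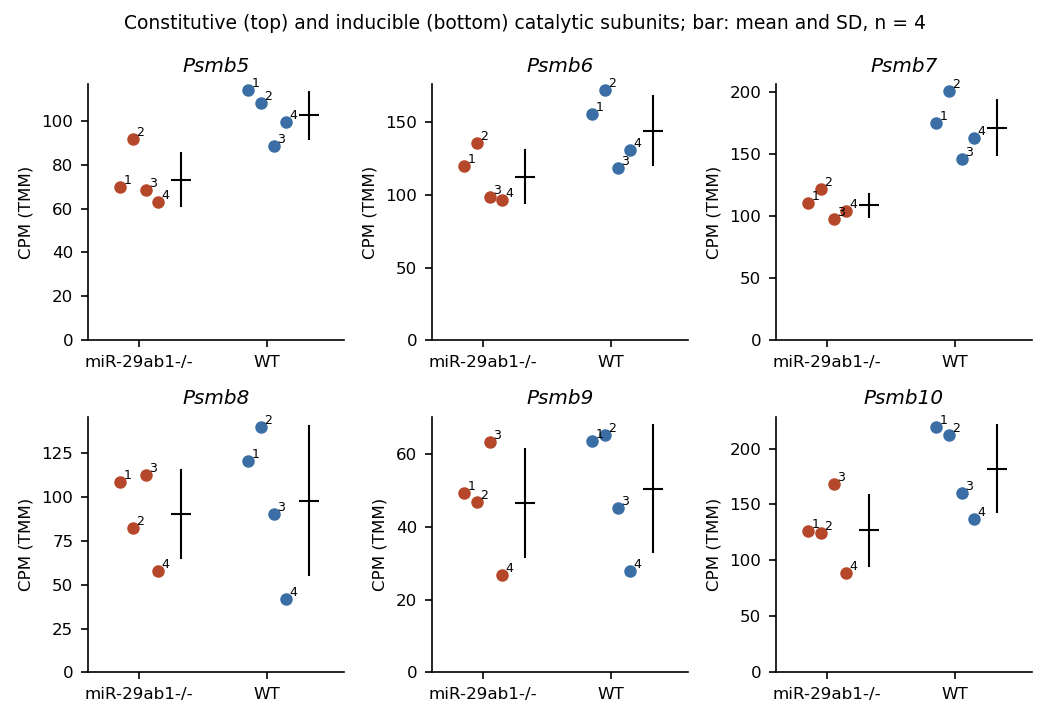
CPM of the constitutive catalytic subunits (top) and their inducible partners (bottom) in each library, with the replicate number, and the mean and SD of 4 libraries. Psmb7 is separate between genotypes, while Psmb8 and Psmb9 overlap and their replicate 4 is the lowest point in both genotypes.

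T cell transcripts varied across the same libraries. Summed CPM of 10 markers of T cells and innate lymphoid cells (Gzma, Gzmb, Cd8a and Ptprc the most abundant) was 853, 347, 1849 and 236 in knockout replicates 1 to 4, and 491, 507, 405 and 59.7 in WT replicates 1 to 4. Knockout replicate 3, the library with the highest sum, also had the highest Psmb8, Psmb9 and Psmb10 of the knockout libraries. Replicate 4 of each genotype had the lowest sum and the lowest Psmb8, Psmb9 and Psmb10 of its genotype. The log2 fold changes of the 9 tested markers were 1.06 to 1.49, with a median of 1.13, against 0.03 for all tested genes. Those of Psmb8, Psmb9 and Psmb10 were −0.52 to −0.11. None of the 9 tested markers passed edgeR's adjusted threshold, and none had an unadjusted p under 0.05. Summed CPM of 10 macrophage and dendritic cell markers was 23.6 to 168 in the knockout and 36.6 to 88.7 in WT, and of 7 B and plasma cell markers 2.12 to 11.5 in the knockout and 4.93 to 12.5 in WT. Ms4a1, Mzb1, Adgre1 and Cx3cr1 were each at 0 in at least 1 library. The part of these cells in the immunoproteasome values was not tested.

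Each inducible subunit was set against the constitutive one whose place it takes, as the log2 ratio within a library, which removes the scaling between libraries. For Psmb8 over Psmb5 the ratio was 0.63, −0.15, 0.71 and −0.11 in knockout replicates 1 to 4, against 0.08, 0.37, 0.02 and −1.24 in WT replicates 1 to 4. The knockout mean was higher by 0.46 and the groups overlapped (two-sided exact permutation test, p = 0.343, adjusted over 3 pairs 0.657). For Psmb9 over Psmb6 the mean ratio was −1.30 ± 0.50 in the knockout and −1.56 ± 0.43 in WT (SD, n = 4 each, exact permutation p = 0.486, adjusted 0.657). For Psmb10 over Psmb7 it was 0.19 ± 0.42 in the knockout and 0.07 ± 0.24 in WT (SD, n = 4 each, exact permutation p = 0.657, adjusted 0.657). The ratio was higher in the knockout in 3, 3 and 2 of the 4 same-numbered pairs. The smallest p these 70 assignments allow is 0.0286 before adjustment. The differences of 0.12 to 0.46 stood beside SDs of 0.24 to 0.72 between libraries of a genotype. By length-scaled levels (FPKM), Psmb8 made up 45.2 ± 8.03 percent of Psmb8 and Psmb5 together in the knockout and 37.9 ± 10.8 percent in WT. Psmb9 made up 34.0 ± 8.22 percent of its pair in the knockout and 30.2 ± 5.89 percent in WT, and Psmb10 45.3 ± 7.32 percent in the knockout and 43.1 ± 3.99 percent in WT.

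**Figure D5:**
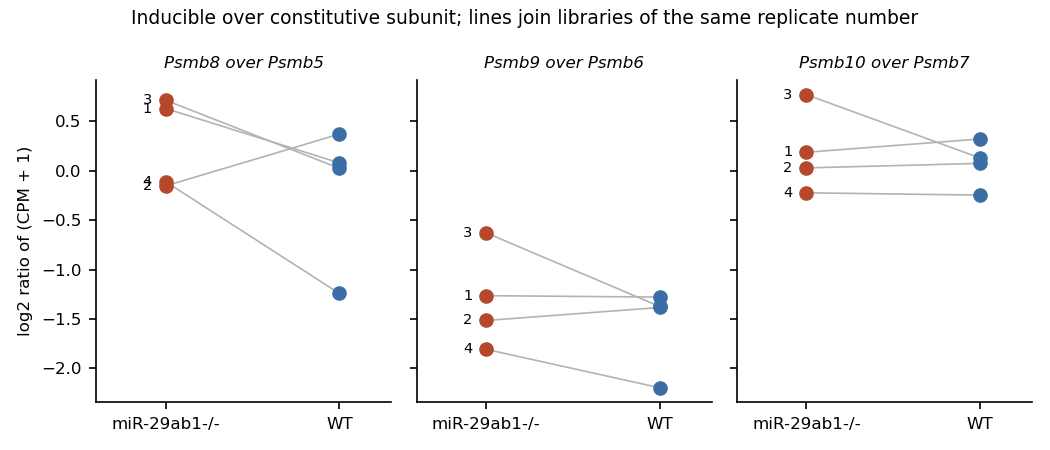
Log2 ratio of (CPM + 1) of each inducible subunit to its constitutive partner, with knockout (miR-29ab1-/-) left of WT and lines joining libraries of the same replicate number. The ranges overlap in all 3 pairs, and WT replicate 4 is the lowest WT point in each.

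Of the 4 tested genes of alternative activators 2 fell, where 23.1 percent of all tested genes were lower. Psme3, PA28 gamma, a nuclear activator of the core that works without ubiquitin, had 186, 216, 225 and 215 CPM in knockout crypts, against 352, 383, 316 and 379 CPM in WT crypts. It was lower by 1.70-fold with the groups far apart (log2 −0.76 ± 0.12, edgeR adjusted p = 0.00154). Psme4, PA200, had 114, 102, 126 and 119 CPM in the knockout and 138, 136, 149 and 156 CPM in WT (log2 −0.33 ± 0.11, edgeR adjusted p = 0.0286). This call was lost in 4 of the 16 alternatives, among them the fit without WT replicate 4 (edgeR adjusted p = 0.0791). The interferon-inducible PA28 genes were not called. Psme1 had 213, 205, 190 and 141 CPM in the knockout and 262, 256, 188 and 163 CPM in WT (log2 −0.21 ± 0.20, edgeR adjusted p = 0.392). Psme2 had 195, 200, 177 and 128 CPM in the knockout and 220, 233, 166 and 135 CPM in WT (log2 −0.11 ± 0.21, edgeR adjusted p = 0.698). As for Psmb8 and Psmb9, replicate 4 was lowest in each genotype. Psme2b, listed beside its near-copy Psme2, was not tested at 4.12 to 21.1 counts in the knockout and 2.39 to 15.8 in WT, and reads of the 2 may have been split. Psmf1, the inhibitor PI31, had 44.6, 42.1, 42.2 and 36.1 CPM in the knockout and 45.1, 54.4, 36.2 and 43.1 CPM in WT, and was not called (log2 −0.11 ± 0.14, edgeR adjusted p = 0.513).

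All 4 Psmg chaperones that guide assembly of the core fell, where 23.1 percent of all tested genes were lower. Psmg1 had 15.4, 23.1, 21.2 and 18.1 CPM in knockout crypts, against 37.8, 42.5, 29.5 and 33.3 CPM in WT crypts (log2 −0.88 ± 0.16, edgeR adjusted p = 0.00273). Psmg3 had 9.95, 15.7, 11.1 and 13.4 CPM in the knockout and 22.4, 23.9, 15.8 and 18.0 CPM in WT (log2 −0.67 ± 0.19, edgeR adjusted p = 0.0182). Psmg4 had 8.32, 9.72, 8.78 and 7.58 CPM in the knockout and 15.2, 14.98, 10.3 and 11.1 CPM in WT (log2 −0.58 ± 0.18, edgeR adjusted p = 0.0261). Each of these 3 was apart between genotypes, and Psmg2 fell by 0.47 on the log2 scale. The calls of Psmg3, Psmg4 and Psmg2 were lost in 2, 3 and 8 of the 16 alternatives, among them the fit without WT replicate 1 (edgeR adjusted p = 0.0531, 0.0810 and 0.0995). Of the chaperones of the base, Psmd5 fell, with 37.2, 42.8, 42.3 and 39.3 CPM in the knockout and 65.1, 68.3, 56.1 and 57.5 CPM in WT (log2 −0.61 ± 0.10, edgeR adjusted p = 0.00195). Psmd9 had 29.2, 33.8, 27.6 and 27.2 CPM in the knockout and 39.8, 44.7, 28.7 and 33.9 CPM in WT. Psmd10, gankyrin, had 23.0, 24.4, 15.5 and 18.6 CPM in the knockout and 24.3, 30.4, 21.0 and 20.3 CPM in WT. Both overlapped and were not called (edgeR adjusted p = 0.110 and 0.323), and blocking gave 0.0361 for Psmd9. Psmc3ip, which is no subunit, had 2.40, 6.36, 3.79 and 3.37 CPM in the knockout and 9.09, 8.25, 7.41 and 9.03 CPM in WT (log2 −1.08 ± 0.29, edgeR adjusted p = 0.0134). Psmb11, the thymus subunit, had at most 1 count in any library.

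Levels of different genes were compared per length, as FPKM. These follow library totals without TMM factors, so they serve to compare genes and not genotypes. Under total-count scaling the median log2 fold change of all tested genes was −0.23, against 0.03 with TMM factors. By CPM with TMM factors, the knockout mean was 70.6 percent of the WT mean in the core and 68.6 percent in the assembly factors. Within the core, the mean over knockout crypts ran from 85.2 FPKM in Psma1 to 191 FPKM in Psmb3, and over WT crypts from 150 FPKM in Psmb5 to 322 FPKM in Psmb3. The highest core gene was thus 2.24 times the lowest in the knockout and 2.15 times in WT. The median over core genes was 134 FPKM in the knockout and 222 FPKM in WT, that of the base 79.6 FPKM in the knockout and 127 FPKM in WT, and that of the lid 59.5 FPKM in the knockout and 99.3 FPKM in WT. Assembly factors had medians of 15.98 FPKM in the knockout and 30.1 FPKM in WT. Psme1 and Psme2 exceeded every core gene in the knockout, at 198 ± 29.6 and 203 ± 32.8 FPKM (SD, n = 4). In WT they had 278 ± 52.5 and 265 ± 55.7 FPKM, and Psmb3 lay above them; their ranges overlap that of Psmb3 in both genotypes. These levels are a description, with no test.

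Genes of the proteasome and its pathways outside the symbol rule were taken from lists chosen with earlier results of these data known. Of 9 tested genes listed as associated with the particle, 4 fell and none rose, with a median log2 fold change of −0.34. Of all tested genes 23.1 percent were lower and 24.2 percent higher. They were the deubiquitinases Usp14 (log2 −0.81 ± 0.12, 79.3 ± 10.4 CPM in the knockout and 139 ± 8.69 CPM in WT) and Uchl5 (−0.71 ± 0.12), the ligase Ube3c (−0.38 ± 0.11) and the ubiquitin receptor Adrm1 (−0.35 ± 0.12). The calls of Ube3c and Adrm1 were lost in 2 and 5 of the 16 alternatives, among them the fit without WT replicate 4 (edgeR adjusted p = 0.0667 and 0.0799). Pomp, the maturation factor of the core, named after its value was seen, was not called at −0.17 (edgeR adjusted p = 0.373). Of 12 transcription regulators of proteasome genes and their partners, 6 rose and 1 fell, against 24.2 percent higher and 23.1 percent lower of all tested genes, with a median log2 fold change of 0.35. The log2 fold changes of Maf, Bach1 and Foxo1 were 3.10, 1.29 and 1.03, and Keap1 was lower by 1.19-fold (edgeR adjusted p = 0.0471), a call lost in 11 of the 16 alternatives (for example 0.132 without WT replicate 1). Nfe2l1, chosen for naming after its value was seen, had 99.0 ± 10.7 CPM in the knockout and 113 ± 10.8 CPM in WT (log2 −0.19 ± 0.12, edgeR adjusted p = 0.203).

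In the list of ubiquitin genes and shuttles that deliver substrates, 9 of 18 tested genes fell and 4 rose, where 23.1 percent of all tested genes were lower and 24.2 percent higher, so that the number that rose was near the background. Their median log2 fold change was −0.32. The shuttle Ubqln2 (log2 −0.67 ± 0.13), the segregase Vcp (−0.55 ± 0.11) and the shuttle Rad23b (−0.48 ± 0.11) had the smallest p of those that fell. Vcp had 423 ± 29.4 CPM in the knockout and 619 ± 16.1 CPM in WT. The polyubiquitin gene Ubb went the other way: it had 3138 ± 996 CPM in the knockout and 1775 ± 370 CPM in WT (log2 0.82 ± 0.26, edgeR adjusted p = 0.0265). The call of Ubb was lost in 5 of the 16 alternatives, among them the fit without knockout replicate 1 (edgeR adjusted p = 0.0900). Midn, which brings proteins to the proteasome without ubiquitin, and Zfand2a were higher by 1.02 and 0.54. The call of Zfand2a was lost in 4 of the 16 alternatives, among them scaling by total counts (edgeR adjusted p = 0.120).

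Of 12 genes that work with the immunoproteasome in interferon signalling and antigen presentation, 4 rose and 3 fell, near the background of 24.2 percent higher and 23.1 percent lower, with a median of 0.32, against 0.03 for all tested genes. B2m, the light chain of MHC class I, had 1834 ± 583 CPM in the knockout and 814 ± 311 CPM in WT (log2 1.17 ± 0.34, edgeR adjusted p = 0.0183), a call lost without knockout replicate 1 (0.0596). The interferon factor Irf9 and the peptide loading genes Tap2 and Tapbp were higher by 0.91, 0.74 and 0.67, while the trimming peptidase Erap1 and the chaperones Calr and Pdia3 were lower by 1.44-fold, 1.33-fold and 1.32-fold. The calls of Tap2 and Tapbp were lost in 5 and 3 of the 16 alternatives, among them scaling by total counts (edgeR adjusted p = 0.151 for Tap2 and 0.0817 for Tapbp). Those of Calr and Pdia3 were each lost in 4, among them the fit without WT replicate 2 (edgeR adjusted p = 0.0784 and 0.0644).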

How the data were processed

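RNA of irradiated crypts was measured in 4 knockout and 4 WT libraries, grouped by title, and columns were matched through the short sample names in the labels. The authors deposited estimated counts per gene, of which 8.04 to 9.18 percent were not whole, per the file headers and values; they were rounded. The second set of columns, computed by the authors and used as deposited, carries no unit and was taken here to be FPKM. The unit was inferred in the re-analysis, because counts, totals and these values agreed per gene to a median of 0.705 percent. The submitters' processing notes name HISAT2 and DESeq2 with no version. For the counter, build, annotation and strandedness, nothing was given in the sources used here.

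The quasi-likelihood test of edgeR 4.0.16 (R 4.3.3) was run over the whole table with genotype as the single term, after filterByExpr and with TMM factors, and was first tested on simulated data, with Benjamini-Hochberg adjustment over 12908 genes and a threshold of 0.05. Levels are CPM with TMM factors; a fold is knockout over WT, and its SE is its log2 size over the square root of F. Ratios used log2(CPM + 1). Alternatives were other scalings, filters, DESeq2 1.42.0, a replicate block and left-out libraries. Same-numbered libraries deviated together from their group means (r = 0.35 to 0.53 over genes), although no label explains the numbering. Libraries of different numbers had r = −0.52 to 0.50, which overlaps: knockout replicate 1 with WT replicate 2 (0.50) exceeded the pair of replicates 2 (0.35). Equal numbers were treated as pairs only in the replicate block, the sign-flip of the ratios and the counts of same-numbered pairs. The main edgeR fit and the permutation test of the ratios did not use the pairing. No library repeated another: the closest pair of a group, WT replicates 1 and 2, differed by 6.04 times the sampling variance. All other pairs within a group differed by 28.6 to 116 times. Whether any libraries came from the same animal was not tested.

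The members, classes and lists were chosen with earlier results of these data known. Values per library are given for the catalytic subunits, PA28 and up to 3 genes of each other class with the smallest p. List genes are named up to 3 in each direction, or all where at most 5 were called; a few results under this rule are not reported here.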

Additional observations from a re-analysis of the deposited data

Results flagged for a closer look

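Single libraries stood apart from the other 3 of their group in 4 of 102 groups of values examined, where chance flags about 1 in 20. Psmc3 was 168 CPM in knockout replicate 2, against 148 CPM in each of the other 3 knockout libraries, and Psmc4 was 130 CPM there, against 109 to 112 CPM. Psmd1 was 237 CPM in WT replicate 3, against 276 to 279 CPM in the other WT libraries. The log2 ratio of Psmb9 over Psmb6 was −2.20 in WT replicate 4, against −1.38 to −1.28 in the other WT libraries.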

How the results depend on the processing

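The count of 32 lower proteasome genes was 20 to 36 when single libraries were left out, lowest without WT replicate 1. In these fits 18.2 to 24.7 percent of all tested genes were lower. The count was 20 in replicates 1 to 3 of both groups alone (18.5 percent of all tested genes). Each such fit had fewer libraries. The count was 29 with RLE factors (22.8 percent of all tested genes) and 38 on upper-quartile factors (27.1 percent). It was 44 when scaled by total counts (31.1 percent) and 39 with the replicate block (27.5 percent). The count of higher proteasome genes was 0 in each of the 16 alternatives, where 16.2 to 28.4 percent of all tested genes were higher. Of the 32 calls, 18 were kept in every alternative. Left-out libraries moved the log2 fold change of Psmb8 over −0.37 to 0.10, above 0 without WT replicate 2 (0.10) and without knockout replicate 4 (0.0091). They moved that of Psmb9 over −0.32 to 0.035, above 0 without WT replicate 1 (0.014), WT replicate 2 (0.031) and knockout replicate 4 (0.035), and that of Psme2 over −0.24 to 0.0078, above 0 without WT replicate 2. The log2 ratio differences ranged from 0.11 to 0.65 for Psmb8 over Psmb5, 0.029 to 0.42 for Psmb9 over Psmb6 and −0.072 to 0.26 for Psmb10 over Psmb7, the last turning without knockout replicate 3. Blocked on same-numbered pairs, the ratio differences had exact sign-flip p = 0.562, 0.562 and 0.875, adjusted over the 3 pairs, where the smallest possible before adjustment is 0.125. Too few counts kept Psmb11 and Psme2b from being tested.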
